A study of Homo sapiens with 8 samples.

Results

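The messenger RNAs of the NF-kappaB system were followed after a block of transcription in SW480 cells, an established human colorectal cancer line. The members were 10 gene symbols covering the NF-kappaB factors NFKB1, NFKB2, RELA and RELB, the inhibitors NFKBIA, NFKBIE and TNFAIP3, the chemokines CXCL8 and CXCL1, and the survival gene BIRC3. Every listed RefSeq transcript that maps to one of them was taken, which gave 12 transcripts of 8 genes among 22468 transcripts of 13349 genes in all. Of these, 11 transcripts of 7 genes had a value in both cell populations, CXCL8 had one in RBMS1 knockdown cells alone, and TNFAIP3 and CXCL1 were listed in neither table.

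The cells stably carried either an shRNA that targets the RNA-binding protein RBMS1 or a control shRNA, and were harvested after 9 h with alpha-amanitin at 10 µg/mL or at 0 h without it. Alpha-amanitin is a mushroom toxin that blocks RNA polymerase II. The level at 9 h over that at 0 h was therefore read as how much of an mRNA persists. How soon and how fully transcription stopped is not in the labels. There were 8 total RNA libraries, 2 for each of the 4 groups, and whether replicate libraries stem from separate cultures is not in the labels. The series text names a pair of shRNA clones against RBMS1 and calls SW480 a breast line, whereas the sample labels name a single clone. Of 11 colorectal epithelial markers, 6 were listed in knockdown cells (EPCAM, KRT8, KRT18, KRT19, CDH1 and CDX2) and 8 in control cells, which added KRT20 and VIL1, while CDX1, LGR5 and CEACAM5 were in neither table. Several of these are shared by other epithelia. Of 15 markers of other cell types, LYZ, CD68 and ACTA2 were listed in both, and GATA3 and ESR1, the breast markers among them, in neither. The authors' deposited tables hold 1 log2 fold change per transcript and cell population, with the libraries already combined, so depth and replicate spread are unknown and no value below carries an error or a p-value. A value below 0 is a lower level at 9 h, relative to the rest of the library. That direction was read from short-lived mRNAs, since MYC lay at −1.38 in knockdown cells and −1.44 in control cells in the authors' deposited tables, FOS at −1.24 in knockdown cells and −1.61 in control cells, and JUN at −0.81 in knockdown cells and −1.01 in control cells.

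NF-kappaB factors are dimers of Rel proteins that wait in the cytoplasm bound to IkB inhibitors. Signals from TNF, IL-1 and Toll-like receptors activate the IkB kinase, the inhibitor is degraded, and the dimer enters the nucleus. Its target genes include its own inhibitors, which close a feedback loop, and inflammatory chemokines, whose mRNAs are known for AU-rich elements in the 3′UTR and for rapid turnover.

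AU-rich elements are built around the pentamer ATTTA in DNA letters. For each member gene that holds any, a stretch of 30 bases with most pentamers in the 3′UTR of a listed transcript is shown. For NFKB1 it is from the shorter transcript. Where stretches tie, as in NFKBIA, a single stretch is shown. The sequences are from GENCODE release 29 (GRCh38), with each pentamer in capitals, and are read 5′ to 3′ on the mRNA strand.
CXCL8: cctATTTAttATTTAtgtATTTATTTAagc
BIRC3: aacaaATTTATTTAatcacagATTTAcatc
NFKBIA: gaccacattttatATTTAttgtgcttcgag
NFKB1: tgaatcattctcgATTTAactcgagacctt
NFKB2: tatttcaaatcttATTTAacaccccacacc
The CXCL8 stretch (chr4:73743111-73743140, plus strand) held 4 pentamers, and the BIRC3 stretch (chr11:102338412-102338441, plus strand) held 3. The stretches of NFKBIA (chr14:35401699-35401728, minus strand), NFKB1 (chr4:102616705-102616734, plus strand) and NFKB2 (chr10:102402430-102402459, plus strand) held 1 each.

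Over the whole 3′UTR the members ranged from no pentamer to 12. The 3′UTR of BIRC3 is 2292 bases long and held 12 ATTTA, a number reached by 6.49% of the listed coding transcripts with a 3′UTR within 20% of its length. CXCL8 held 9 in 1252 bases, reached by 2.13% of transcripts of like length, and NFKBIA held 3 in 502 bases, reached by 10.7%. The longer NFKB1 transcript held 3 in 708 bases and the shorter one 1 in 321 bases, while each NFKB2 transcript held 1 in a 3′UTR of 148 or 153 bases. RELA, RELB and NFKBIE held none. At least 1 pentamer was thus found in 8 of 12 member transcripts, from 5 genes, where 64.0% of all 18715 listed coding transcripts with a 3′UTR held it. The longer forms TATTTAT, which contains the pentamer, and TTATTTATT, which contains both, were counted in the same way on the mRNA strand. TATTTAT occurred in CXCL8, BIRC3 and NFKBIA, and in 28.0% of all these transcripts. TTATTTATT occurred once in CXCL8 and once in BIRC3, and in 6.92% of all of them. ATATA, a motif reported for RBMS proteins, occurred 4 times each in CXCL8 and BIRC3 and in no other member, and in 52.4% of all of them. A match of letters is a description and not a site of binding or decay.

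**Figure D1:**
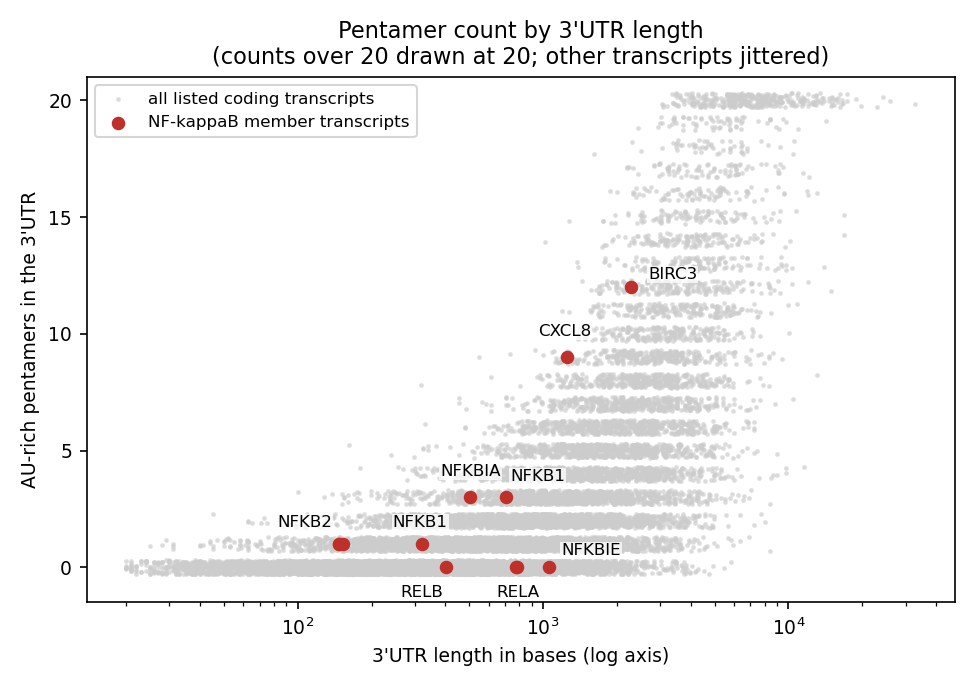
AU-rich pentamers in the 3′UTR (vertical axis, number) against 3′UTR length (horizontal log axis, bases). The 12 member transcripts are in red and all listed coding transcripts with a 3′UTR in grey. BIRC3 with 12 and CXCL8 with 9 lie high for their length, and RELA, RELB and NFKBIE lie at 0.

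The first question was how the level of each member mRNA after 9 h with alpha-amanitin compared with that at 0 h. Among the members measured singly, CXCL8 was the lowest in knockdown cells, the inhibitors NFKBIA and NFKBIE lay below 0 in both cell populations, and RELB and BIRC3 lay near 0. NFKB1 and NFKB2 had transcripts at 1.48 or above and at −1.09 or below side by side in control cells in the authors' deposited table, and no transcript of either past a size of 1 in knockdown cells.

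Among the Rel proteins, RELA encodes the main transactivating subunit of NF-kappaB. Its transcript NM_001243984 lay at −0.20 in knockdown cells and −0.52 in control cells in the authors' deposited tables. Its other transcript, NM_001243985, lay at −0.56 in knockdown cells and −0.40 in control cells in the authors' deposited tables. Both RELA transcripts were thus below 0 in both cell populations, and their order was opposite in the 2 populations. NM_001243985 lies wholly within NM_001243984 in the annotation, which has 434 further bases, 309 of them coding. RELB, a partner of the non-canonical pathway, lay at 0.03 in knockdown cells and 0.06 in control cells in the authors' deposited tables, the closest pair of values among the 11 shared member transcripts. It lay above 54.0% of all transcripts in knockdown cells and above 55.9% in control cells, near the middle of both tables.

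NFKB1 encodes a precursor that is processed to a DNA-binding subunit. Its transcript NM_001165412 lay at 0.16 in knockdown cells and 1.56 in control cells in the authors' deposited tables. Its transcript NM_003998 lay at −0.01 in knockdown cells and −1.09 in control cells in the authors' deposited tables. In control cells the first lay above 95.5% and the second above 12.1% of all transcripts, whereas in knockdown cells they lay above 62.2% and 51.5%. These transcripts are nearly the same molecule, since all 3693 exonic bases of NM_001165412 are in NM_003998. The 392 bases that NM_003998 has alone are 387 in the 3′UTR, 3 coding and 2 in the 5′UTR. Reads from the shared bases cannot name their transcript, and how the authors divided them is not stated, so both values are uncertain taken singly.

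NFKB2, the precursor of the non-canonical pathway, had 3 listed transcripts. NM_002502 lay at 0.50 in knockdown cells and 1.48 in control cells in the authors' deposited tables. NM_001261403 lay at −0.72 in knockdown cells and 0.20 in control cells in the authors' deposited tables. NM_001288724 lay at 0.004 in knockdown cells and −1.43 in control cells in the authors' deposited tables. The order of these transcripts thus differed between the populations below the highest, NM_002502. NM_002502 and NM_001261403 match 1 and the same GENCODE transcript, and 97.0% of its exonic bases are also in NM_001288724, so the same doubt applies. Averaged over transcripts, NFKB1 was at 0.07 in knockdown cells and 0.24 in control cells, and NFKB2 at −0.07 in knockdown cells and 0.08 in control cells, computed from the authors' deposited tables.

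**Figure D2:**
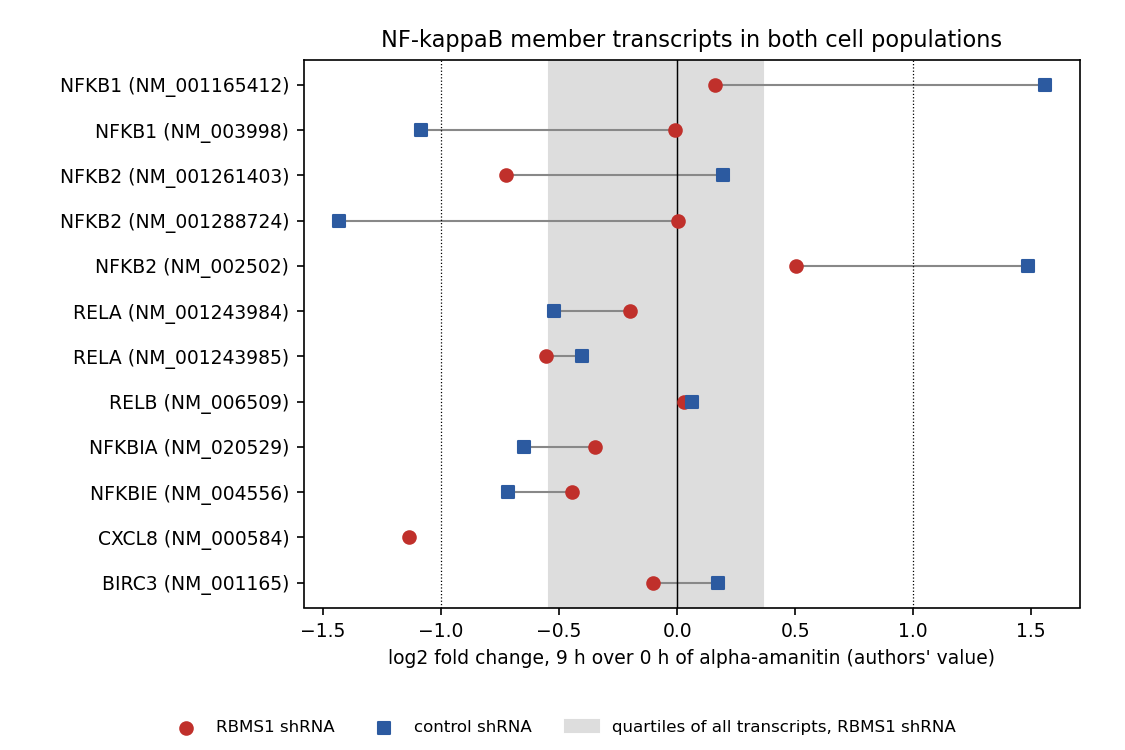
Log2 fold change at 9 h over 0 h (horizontal axis) of the 12 member transcripts, with RBMS1 knockdown cells as red circles, control cells as blue squares, dotted lines at a size of 1 and the quartiles of all transcripts in knockdown cells shaded. The NFKB1 and NFKB2 transcripts spread from −1.43 to 1.56 in control cells and from −0.72 to 0.50 in knockdown cells, and CXCL8 has a red circle alone.

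The inhibitors come next. NFKBIA encodes IkB-alpha, which holds NF-kappaB in the cytoplasm, and is itself induced by NF-kappaB. It lay at −0.35 in knockdown cells and −0.65 in control cells in the authors' deposited tables, or 78.6% of the 0 h level in knockdown cells and 63.8% in control cells, relative to the rest of the library. NFKBIE, which encodes IkB-epsilon, lay at −0.44 in knockdown cells and −0.72 in control cells in the authors' deposited tables, or 73.5% of the 0 h level in knockdown cells and 60.8% in control cells. Both inhibitors were thus lower at 9 h in both populations. NFKBIA lay above 33.1% of all transcripts in knockdown cells and 22.7% in control cells, and NFKBIE above 28.9% in knockdown cells and 20.4% in control cells. TNFAIP3, which encodes the ubiquitin-editing inhibitor A20, had no listed transcript.

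Of the targets, CXCL8 encodes interleukin-8, a chemokine that attracts neutrophils. It lay at −1.14 in the authors' deposited table for knockdown cells, 45.5% of its 0 h level, above 10.8% of all transcripts. It was the lowest of the 12 member transcripts there. It was not listed for control cells, as were 1140 transcripts in all, and 1994 were listed for control cells alone. No comparison between the populations can be made for CXCL8. BIRC3 encodes cIAP2, a ubiquitin ligase that protects cells from TNF-induced death. It lay at −0.10 in knockdown cells and 0.17 in control cells in the authors' deposited tables. Whether the 3′UTR pentamers of CXCL8 and BIRC3 bear on these values was not tested. CXCL1, a chemokine of the same kind as CXCL8, had no listed transcript.

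A size of 1, that is 50% of the 0 h level or 2-fold above it, was used to count. In knockdown cells 1 of 12 member transcripts (CXCL8) lay at −1 or below, where 12.9% of all transcripts did, and 0 of 12 lay at 1 or above, where 8.65% did. In control cells 2 of 11 lay at −1 or below against 13.8% of all transcripts, and 2 of 11 at 1 or above against 8.32%. All 4 in control cells were transcripts of NFKB1 or NFKB2. The median of the member transcripts was −0.15 in knockdown cells and −0.40 in control cells, where all transcripts had a median of −0.03 in knockdown cells and −0.04 in control cells. The level of total RNA after a transcription block is not fixed by these tables. With ribosomal protein mRNAs as the reference, all values shift by −0.39 in knockdown cells and −0.41 in control cells, and the gene values of NFKB1 and RELB in knockdown cells, and of NFKB1, NFKB2, RELB and BIRC3 in control cells, then lie below 0 in place of above it. The shares are near those of all transcripts, given that 1 transcript of 11 or 12 moves them by several percent.

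The second question was whether persistence differed with RBMS1 knocked down. Across all shared transcripts, the knockdown and control values had a Pearson correlation of 0.29, a measure on which the most extreme values weigh heavily. Differences between the populations ran from −18.7 to 19.4, whereas 66.5% of them were under 0.5 in size. The difference was taken as the knockdown value minus the control value of the same transcript, centred by subtracting the median of all 19334 shared transcripts, −0.02. NFKBIA had a centred difference of 0.32, NFKBIE of 0.29, RELB of −0.02 and BIRC3 of −0.26. These 4 genes have a single listed transcript, and over all 7282 such genes the quartiles of the centred difference were −0.14 and 0.18. It was under 0.5 in size for 84.9% of such genes. The difference of NFKBIA was larger in size than that of 73.5% of these genes, that of NFKBIE than 70.8%, that of BIRC3 than 66.2% and that of RELB than 5.89%. Both of these IkB mRNAs thus differed in the same direction, with a higher value of 9 h over 0 h in knockdown cells. No replicate spread is known against which to set either. The other measured IkB genes, NFKBIB and NFKBID, had centred differences of −0.06 and −0.05. The RELA transcripts had centred differences of 0.34 and −0.14, on opposite sides of 0.

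For NFKB1 and NFKB2 the differences of the transcripts cancelled. NM_001165412 of NFKB1 had a centred difference of −1.38 and NM_003998 of 1.09. Of the NFKB2 transcripts, NM_001288724 had 1.45, NM_001261403 had −0.90 and NM_002502 had −0.96. As means over transcripts the centred difference was −0.14 for both NFKB1 and NFKB2, and 0.10 for RELA. At the level of genes, the 7 members in both tables therefore ranged from −0.26 to 0.32, with 0 of 7 at −1 or below and 0 of 7 at 1 or above, where 4.16% and 4.89% of all 12479 genes were. That range holds for means over transcripts. With the transcript of smallest difference in place of the mean, NFKB1 was at 1.09, NFKB2 at −0.90 and RELA at −0.14, so that 1 of 7 reached 1, and with the median over transcripts NFKB2 was at −0.90. Among transcripts, 2 of 11 lay at 1 or above, where 8.98% of all shared transcripts did, and 1 of 11 at −1 or below, where 8.65% did.

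**Figure D3:**
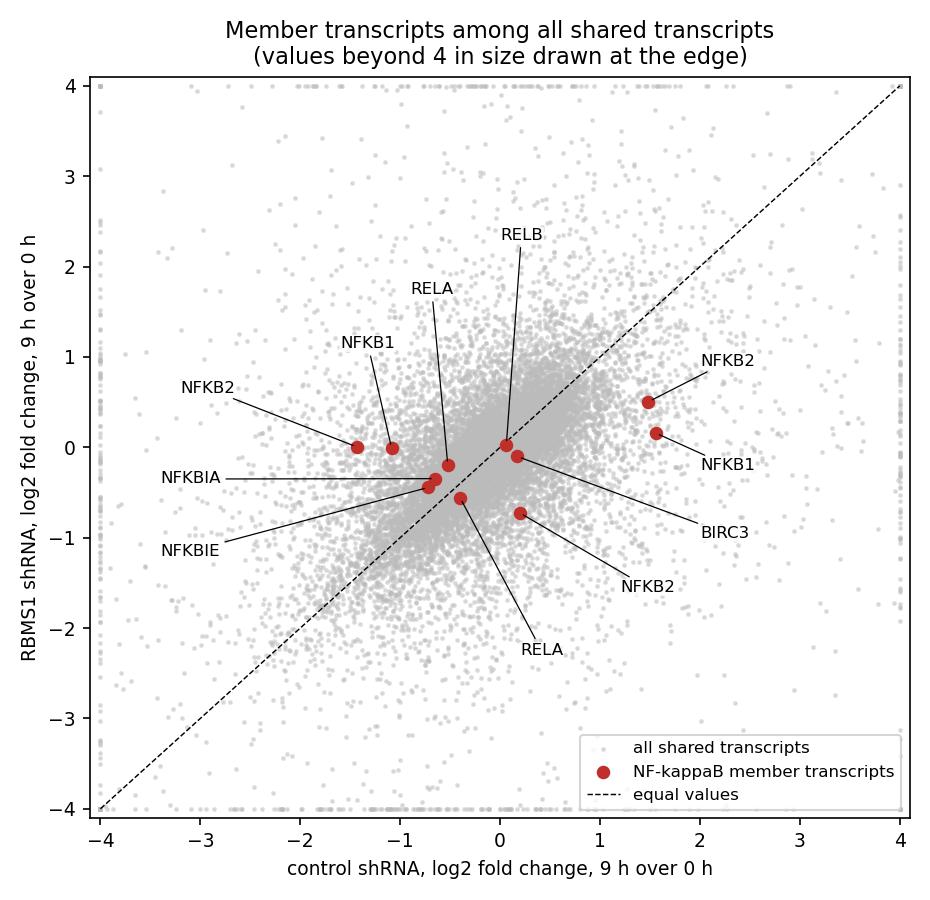
Log2 fold change at 9 h over 0 h in RBMS1 knockdown cells (vertical axis) against control cells (horizontal axis), for the 11 shared member transcripts in red and all 19334 shared transcripts in grey, with a dashed line of equal values. The transcripts of NFKB1 and NFKB2 lie off the line on both sides, and those of RELB, RELA, NFKBIA, NFKBIE and BIRC3 lie nearer to it.

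The spread among transcripts of 1 gene was therefore described over all genes. In knockdown cells the NFKB1 transcripts differed by 0.17, a range smaller than that of most of the 2879 genes with the same number of shared transcripts, of which 14.9% had a smaller one. In control cells they differed by 2.64, and 91.1% of these genes had a smaller range. For NFKB2 the range was 1.23 in knockdown cells, above 44.9% of the 1015 genes with as many shared transcripts, and 2.92 in control cells, above 81.8%. For RELA it was 0.36 in knockdown cells and 0.12 in control cells, above 29.4% of such genes in knockdown cells and 11.3% in control cells. Transcripts past a size of 1 in both directions were found for 316 of 4407 genes with several shared transcripts (7.17%) in knockdown cells and for 305 (6.92%) in control cells. NFKB1 and NFKB2 were 2 of the 305 in control cells, and no member was among the 316. There were 82 genes in both sets. They were 25.9% of the knockdown set, where 6.92% of all 4407 genes were in the control set. They were 26.9% of the control set, where 7.17% of all 4407 genes were in the knockdown set. Such a pattern in 1 population was thus mostly not found in the other, though more often than among all these genes. The number of transcripts per gene was not matched here. In control cells the median range was 0.65 for genes with as many shared transcripts as NFKB1 and 1.37 for those with as many as NFKB2.

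**Figure D4:**
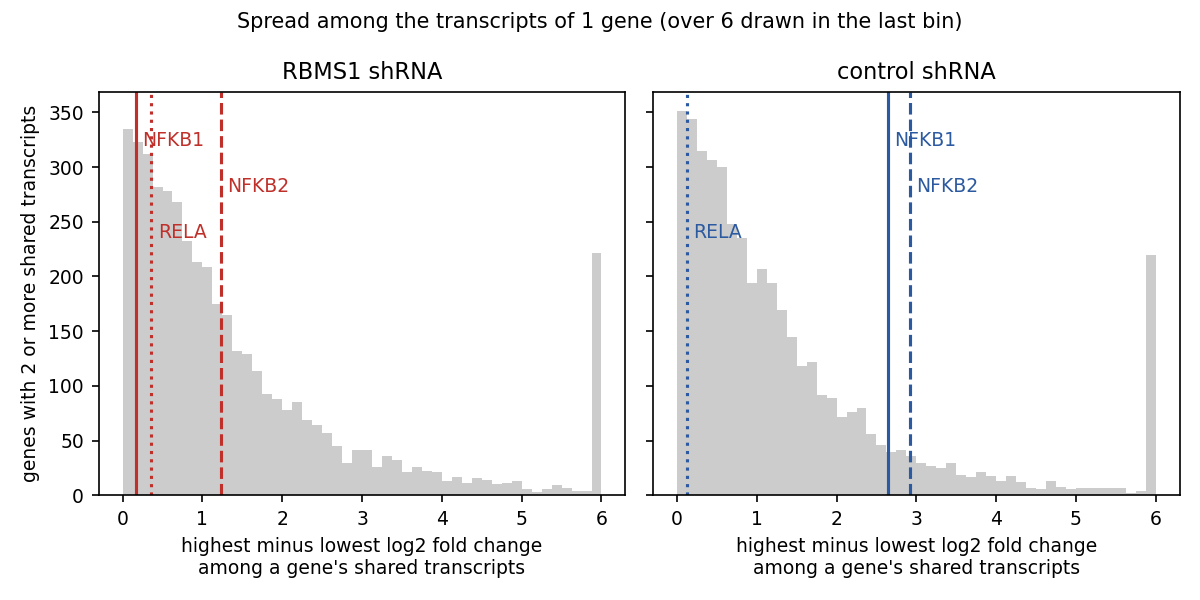
Number of genes (vertical axis) by the highest minus the lowest log2 fold change among their shared transcripts (horizontal axis), for RBMS1 knockdown cells at the left and control cells at the right, with lines for NFKB1, NFKB2 and RELA. NFKB1 lies at 0.17 in knockdown cells and 2.64 in control cells.

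The remaining genes of the pathway were then counted by role, as means over listed transcripts. Of 110 symbols in the lists, 79 genes had a value in knockdown cells and 81 in control cells. Of these, 14 lay at −1 or below and 5 at 1 or above in knockdown cells, where 9.5% and 5.26% of all genes did. In control cells 15 lay at −1 or below and 4 at 1 or above, where 10.7% and 4.84% of all genes did. The centred difference was −1 or below for 2 of 79 and 1 or above for 4 of 79, against 4.16% and 4.89% of all genes. The median of the lists was −0.39 in knockdown cells and −0.22 in control cells, and that of all genes −0.05 in knockdown cells and −0.07 in control cells.

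Ligands and receptors had 5 of 12 genes at −1 or below in knockdown cells and 4 of 13 in control cells. The lowest by the mean of both populations was TNFSF10, which encodes the death ligand TRAIL, with its shared transcript at −2.17 in knockdown cells and −1.67 in control cells in the authors' deposited tables. TNFRSF1A, the main TNF receptor, lay at −1.05 in knockdown cells and −1.32 in control cells in the authors' deposited tables. The interleukin-1 co-receptor IL1RAP had a shared transcript at −1.19 in knockdown cells and −1.92 in control cells in the authors' deposited tables, and another at 2.64 in control cells alone. TNFRSF1A was thus low in both populations, whereas the mean of IL1RAP over its listed transcripts was −1.19 in knockdown cells and 0.36 in control cells. TNFSF12, the ligand TWEAK, is represented by a non-coding transcript at −0.56 in knockdown cells and 0.23 in control cells in the authors' deposited tables. The shared transcripts of TLR4, the receptor for bacterial lipopolysaccharide, ran from −5.03 to 0.85 in knockdown cells and from −2.39 to 0.36 in control cells in the authors' deposited tables.

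All 31 adaptors, ligases and kinases were listed, 6 of them at −1 or below in each population and 1 at 1 or above in each. The lowest by the mean of both was MAP3K8, the kinase Tpl2, which binds the NFKB1 precursor protein, at −2.07 in knockdown cells and −1.72 in control cells in the authors' deposited tables. TAB3, an adaptor of the kinase TAK1, lay at 0.09 in knockdown cells and −0.41 in control cells in the authors' deposited tables. The other extremes of the difference were genes with several transcripts. The difference of MYD88, the adaptor of Toll-like receptors, at −2.22 as a mean, came mostly from 1 transcript at 0.38 in knockdown cells and 6.48 in control cells in the authors' deposited tables. Another MYD88 transcript lay at 7.90 in knockdown cells alone in the authors' deposited table, and over all listed transcripts the MYD88 mean was 1.97 in knockdown cells and 2.23 in control cells. Likewise IKBKE, an IkB kinase-related enzyme, at 1.99, had 1 transcript at 0.62 in knockdown cells and −8.64 in control cells in the authors' deposited tables. XIAP, an inhibitor of caspases, had a mean centred difference of −0.82 over transcripts from −1.46 to 0.19.

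Of the other Rel and IkB proteins, REL, the lymphoid Rel subunit, lay at 0.05 in knockdown cells and −1.11 in control cells by the authors' deposited tables, which gives a centred difference of 1.18 from 1 transcript. NFKBID, a nuclear IkB protein, lay at −1.07 in knockdown cells and −0.99 in control cells in the authors' deposited tables. The 2 shared transcripts of NFKBIB, which encodes IkB-beta, had centred differences of 0.15 and −0.26, with a mean of −0.06. Another NFKBIB transcript lay at 7.55 in the authors' deposited table for control cells and was not listed for knockdown cells.

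Of 14 measured genes among the other negative regulators, 1 lay at −1 or below in each population, and it was OTULIN, a linear-ubiquitin protease, at −1.10 in knockdown cells and −1.02 in control cells in the authors' deposited tables. RNF11, a ligase that works with A20, lay at −0.89 in knockdown cells and 0.25 in control cells by the authors' deposited tables, which gives a centred difference of −1.12. The deubiquitinase CYLD had a mean centred difference of −0.92, of which 1 transcript at −3.07 made up most, with the others at 0.12 and 0.20. NKRF, an NF-kappaB repressing factor, had 0.42 and N4BP1, an inhibitor of NF-kappaB signalling, 0.33.

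Other target genes had a median of 0.44 over 19 genes in knockdown cells and −0.13 over 20 in control cells. These medians are over partly different genes and transcripts. The median centred difference was 0.19, where all genes had a median of 0.001 and quartiles of −0.19 and 0.23. The lowest by the mean of both was IER3, an immediate early gene, at −1.52 in knockdown cells and −1.73 in control cells in the authors' deposited tables. The adhesion receptor SDC4 lay at 0.36 in knockdown cells and 1.24 in control cells in the authors' deposited tables. BCL2L1, which encodes the survival protein BCL-XL, had centred differences of −1.18 and 0.22 for its transcripts. CCL28, a mucosal chemokine, had a shared transcript at 3.95 in knockdown cells and −0.46 in control cells in the authors' deposited tables. LAMB3, a laminin chain, owed its mean difference of 4.06 to 1 transcript at 6.63 in knockdown cells and −7.52 in control cells by the authors' deposited tables, whereas the other transcripts had −1.18 and −0.81.

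**Figure D5:**
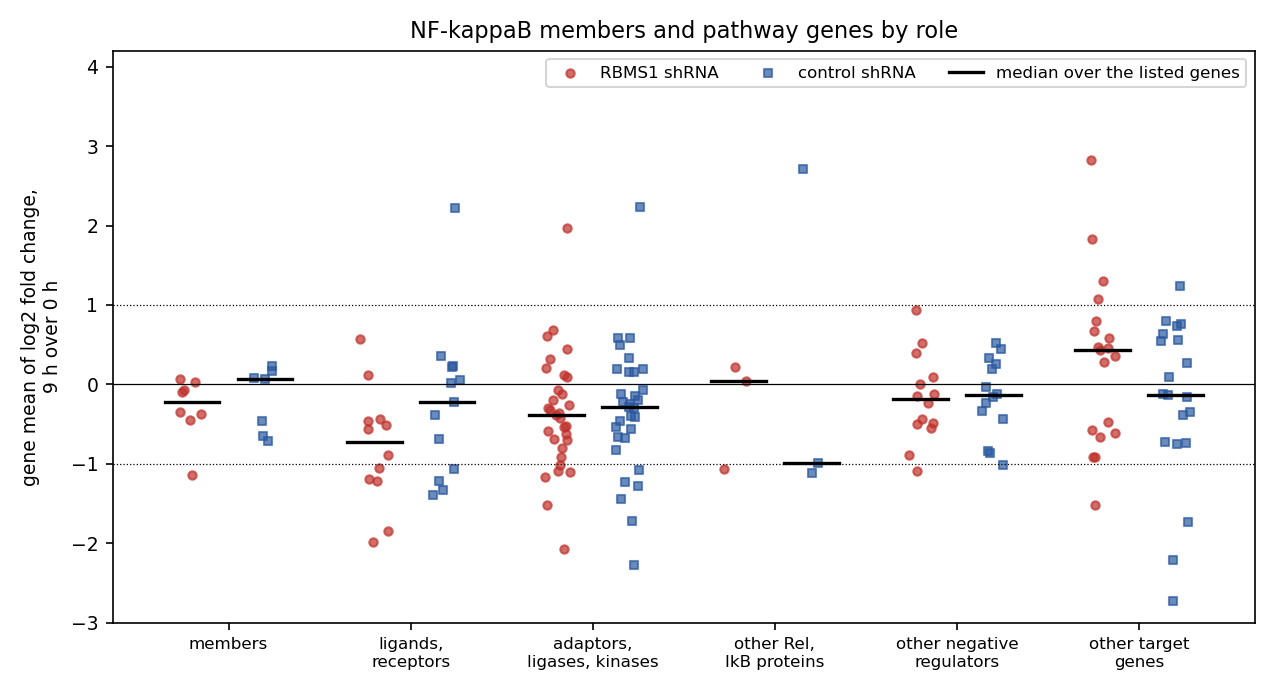
Gene means of the log2 fold change at 9 h over 0 h (vertical axis) for the members and the 5 pathway lists, RBMS1 knockdown cells as red circles and control cells as blue squares, with bars at the medians and dotted lines at a size of 1. The medians of the members are −0.22 over 8 genes in knockdown cells (−0.10 over the 7 shared genes) and 0.06 over 7 in control cells, while over transcripts they are −0.15 in knockdown cells and −0.40 in control cells, the opposite order.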

How the data were processed

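The submitters' processing notes name STAR 2.5, Cufflinks and Cuffdiff and hg38 as the build, and give no order or settings. The authors deposited, per the file headers, 1 log fold change per RefSeq transcript for each shRNA, with the replicate libraries combined, and these were read as log2 fold changes of 9 h over 0 h, since Cuffdiff writes log2. The headers state no base and no direction, and no source used here states the normalisation or the depth. No value reaches 10 in size and none equals 0, so transcripts may have been removed by a rule that is not given. Symbols came from the RefSeq gene table (GRCh38.p14) for 22132 of 22468 accessions and from GENCODE release 29 for 204 more. GENCODE also gave exons and 3′UTRs (at least 20 bases), and all 12 member transcripts matched. Because the deposited values carry no abundances, gene values are unweighted means over transcripts. Python 3.11.15 and pandas 2.3.3 were used. Counting, centring and averaging over transcripts were run on simulated data without noise, which checks the arithmetic alone. Genes named were all members, and in each list the 2 largest and 2 smallest differences and the lowest mean. Members and lists were chosen with earlier results of these data known. No significance test was possible. Alternatives were the way transcripts are averaged, the reference level and the size counted.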

Additional observations from a re-analysis of the deposited data

How the results depend on the processing

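No paired analysis was possible because the libraries had been merged into a single value per transcript, and for the same reason no library could be left out. With ribosomal protein mRNAs as the reference, values shifted by −0.39 in knockdown cells and −0.41 in control cells, and the member gene median became −0.61 in knockdown cells and −0.35 in control cells, with 2 of 8 genes changing sign in knockdown cells and 4 of 7 in control cells. Over the genes in both tables the knockdown median was −0.10, since CXCL8 is left out, and with the transcript of smallest size the control median was −0.40. The median difference over the members moved by under 0.1 in every alternative run, but it is the value of RELB, which has 1 transcript and so cannot move with the averaging. With the transcript of smallest difference, 2 of 7 genes changed sign, NFKB1 to 1.09 and RELA to −0.14, and NFKB2 was at −0.90. Member transcripts counted lower and higher were 3 and 1 in knockdown cells, 5 and 2 in control cells, and 3 and 2 for the difference at a size of 0.5. Of all transcripts, 55.0% were under 0.5 in size in knockdown cells, 53.4% in control cells and 66.4% for the difference. At 1.5 they were 0 and 0 in knockdown cells, 0 and 1 in control cells, and 0 and 0 for the difference. Relative to ribosomal protein mRNAs, 2 were lower in knockdown cells and 4 in control cells. Pathway genes counted lower and higher were 32 and 13 in knockdown cells, 27 and 13 in control cells, and 9 and 7 for the difference at 0.5. Of all genes, 62.0% were under 0.5 in size in knockdown cells, 59.8% in control cells and 76.9% for the difference. At 1.5 they were 5 and 3 in knockdown cells, 5 and 3 in control cells, and 1 and 3 for the difference. Relative to ribosomal protein mRNAs they were 25 and 3 in knockdown cells and 25 and 3 in control cells. The changed reference moves all values alike, and the other counts follow from the size chosen. Shares over all transcripts or genes were not computed at 1.5 or with the ribosomal reference. Those counts therefore stand without a comparison.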

Other observations

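Of the pathway genes, 2 were listed for control cells alone. CSF2, which encodes the cytokine GM-CSF and whose mRNA is a classic carrier of AU-rich elements, lay at −2.72 in the authors' deposited table. LTB, which encodes lymphotoxin-beta, lay at 2.22 in the authors' deposited table. Both were chosen after their values were seen. Neither can be compared between the cell populations, as is the case for CXCL8.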
